A study of Mus musculus with 23 samples.

Results

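The myosin light chain genes described here are Myl1, Myl2, Myl3, Myl4, Myl6, Myl7, Myl9 and Mylpf, 8 genes taken by symbol and grouped by the muscle type of their products. All 8 were measured among 21892 named genes, by 11 of the 30625 named probes. Myl1, Myl2 and Myl6 had 2 probes each, which were averaged, and every other light chain had 1. Expression was read in ventricle RNA of 23 male mice, 1 mouse per 2-colour array, as the log2 ratio of heart (Cy5) over a common pool (Cy3) of RNA from spleen, kidney, liver, brain and heart. A value of 0 therefore means as much signal as in the pool, and a value of −1 means 0.5 times as much.

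The hearts came from MR-Cardio mice given aldosterone (n = 6), MR-Cardio mice without treatment (n = 7), non-transgenic controls given aldosterone (n = 5) and non-transgenic controls without treatment (n = 5). MR-Cardio mice carry a transgene that overexpresses the mineralocorticoid receptor in cardiomyocytes, and aldosterone is the steroid hormone that binds this receptor. The labels give 7 days for every group. The promoter of the transgene, the number of founder lines, the strain and the age of the mice were not stated in the labels. The design asks which cardiac genes respond to the receptor and to the hormone.

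Each head of a muscle myosin carries an essential and a regulatory light chain, wrapped around the lever arm of the heavy chain. Separate genes encode these chains for atrium, ventricle, fast skeletal muscle and smooth muscle, so the set of light chains that a muscle makes is a mark of its type. In the mouse heart the ventricular pair is Myl2 and Myl3 and the atrial pair is Myl7 and Myl4, while phosphorylation of the regulatory chain by myosin light chain kinases tunes the force of contraction.

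The promoter sequences of the genes that carry the differences below are shown first, with Myl4 as the partner of Myl7 that was not called. They are from RefSeq on GRCm38.p6 and run 5′ to 3′ over the 250 bases before a transcription start. Positions count back from −1 at the last base before the start. Capitals mark the sequence motifs that were searched on both strands. Those were the CArG box, which serum response factor binds, and the MEF2 motif, both by name, GATAA (GATA factors), CATTCC (TEAD factors), AAGTG (NKX2-5), AGGTGT (T-box factors) and TGTTCT (the steroid receptor half-site). No marked motif overlaps another. Myl7 lies on the minus strand at chr11:5898783-5899032, Myl4 on the plus strand at chr11:104550413-104550662, and Myl9 on the plus strand at chr2:156775214-156775463. For Myl6, which has 2 listed starts, the window at chr10:128493010-128493259 on the minus strand is shown, since the other window held no match.
Myl7: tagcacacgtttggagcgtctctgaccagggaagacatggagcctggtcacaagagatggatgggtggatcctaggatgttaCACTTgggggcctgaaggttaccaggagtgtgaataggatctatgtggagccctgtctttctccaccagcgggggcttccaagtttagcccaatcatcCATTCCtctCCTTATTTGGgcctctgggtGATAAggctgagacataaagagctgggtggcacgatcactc
Myl4: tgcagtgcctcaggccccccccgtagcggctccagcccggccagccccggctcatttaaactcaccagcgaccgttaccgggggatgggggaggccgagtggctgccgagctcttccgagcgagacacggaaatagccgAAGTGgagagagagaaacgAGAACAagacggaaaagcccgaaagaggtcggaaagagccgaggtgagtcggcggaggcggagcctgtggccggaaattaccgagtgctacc
Myl9: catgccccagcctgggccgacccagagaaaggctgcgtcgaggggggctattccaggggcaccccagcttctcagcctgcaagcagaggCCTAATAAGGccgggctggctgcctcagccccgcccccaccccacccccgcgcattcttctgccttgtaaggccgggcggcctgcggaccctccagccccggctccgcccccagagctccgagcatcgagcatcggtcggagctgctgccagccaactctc
Myl6: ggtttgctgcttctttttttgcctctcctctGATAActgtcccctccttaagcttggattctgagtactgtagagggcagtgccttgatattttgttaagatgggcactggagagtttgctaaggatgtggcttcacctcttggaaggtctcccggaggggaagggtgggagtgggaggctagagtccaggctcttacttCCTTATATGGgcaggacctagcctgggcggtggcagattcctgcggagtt

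A CArG box was found at −61 to −52 of Myl7 (CCTTATTTGG), at −161 to −152 of Myl9 (CCTAATAAGG), at −50 to −41 of the Myl6 window shown (CCTTATATGG) and, in the ventricular gene Myl3, at −85 to −76 (CCTTTTATGG). Of 32536 distinct promoter windows of the same length, 1.48% hold a CArG box. GATAA matched in Myl2, Myl3, Myl7 and Myl6 (22.5% of windows), CATTCC in Myl3, Myl7 and Myl1 (12.6%), and AAGTG in Myl2, Myl7 and Myl4 (40.6%). The steroid receptor half-site matched in Myl4 and Mylpf (16% of windows). AGGTGT (11.9%) and the MEF2 motif (2.89%) were in none of the windows. A match is a description of these letters, and factor binding was not measured.

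Every MR-Cardio heart lay above every control heart in Nr3c2. This gene, the mineralocorticoid receptor gene, averaged 3.97 ± 0.85 in MR-Cardio hearts with aldosterone and 3.21 ± 0.72 in untreated MR-Cardio hearts, against 0.22 ± 0.17 in controls with aldosterone and 0.43 ± 0.14 in untreated controls (SD). The median ratio of an array was −0.04 to 0.12, and any pair of arrays correlated at 0.855 or above. Array width differed by genotype, as the slope of 10 spike-in controls was 1.003 to 1.029 on MR-Cardio arrays and 0.964 to 0.982 on control arrays. Mouse 1 of the MR-Cardio group with aldosterone stood apart from its group, with the lowest cardiomyocyte score of all mice, 1.59, and the highest fibroblast score, 3.42, each the mean log2 ratio of a marker list.

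Against the labelled tissue, the ventricular marker Myl2, as the mean of its 2 probes, lay 2.72 to 3.82 log2 units above the pool in all 23 hearts. Those probes differed in level, with group means of 5.64 to 6.14 for one and 0.72 to 1.24 for the other. By the lower probe the lowest heart, an MR-Cardio heart with aldosterone, was at −0.04. The atrial markers Myl7 and Myl4 lay below the pool in all hearts, between −6.24 and −3.77. Differences were tested with limma on all arrays, p-values were adjusted over 21892 genes by the Benjamini-Hochberg method, and a gene was called at an adjusted p under 0.05.

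Between untreated MR-Cardio and control hearts, 1 of 8 light chains was called, against 13.6% of all genes, and that was Myl7. With aldosterone in both genotypes 3 of 8 were called, against 25.1% of all genes: Myl6 and Myl9 were higher and Myl7 was lower in MR-Cardio hearts. The ventricular pair, the fast skeletal pair and Myl4 did not pass the test in either comparison. The median difference of the 8 genes was 0.05 without and 0.05 with aldosterone, beside medians over all genes of −0.01 and −0.04.

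**Figure D1:**
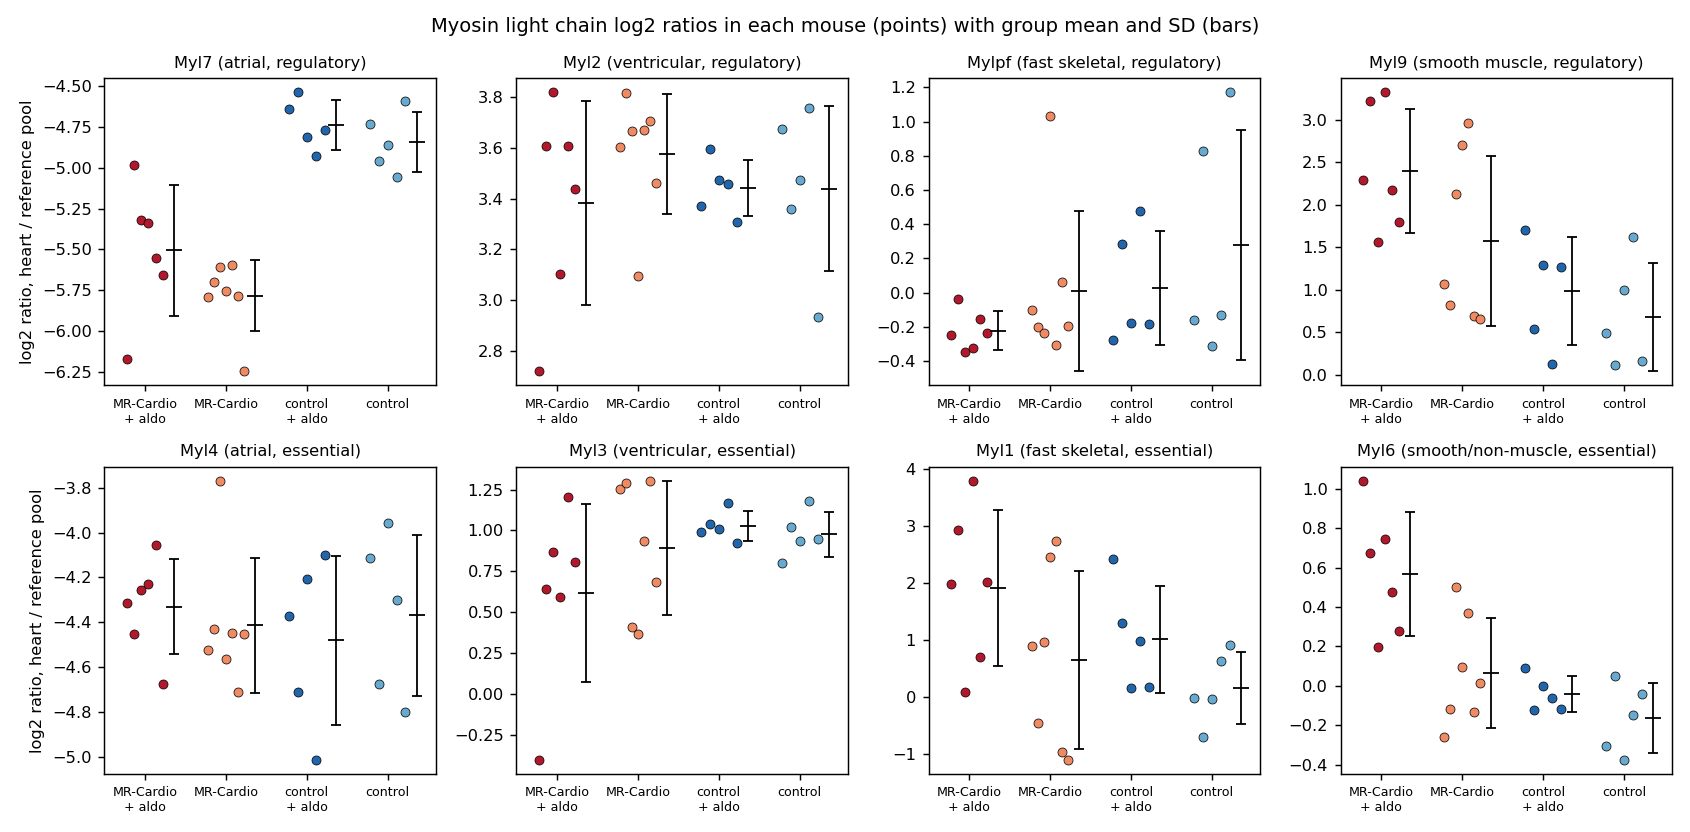
Log2 ratio of heart over the reference pool for each light chain (y axis, a scale of its own in each panel) in each mouse (points), by group, with the group mean and SD as bars. Myl7 is lower in all MR-Cardio hearts but 1 than in every control heart, and Myl6 and Myl9 are highest in MR-Cardio hearts with aldosterone.

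**Figure D2:**
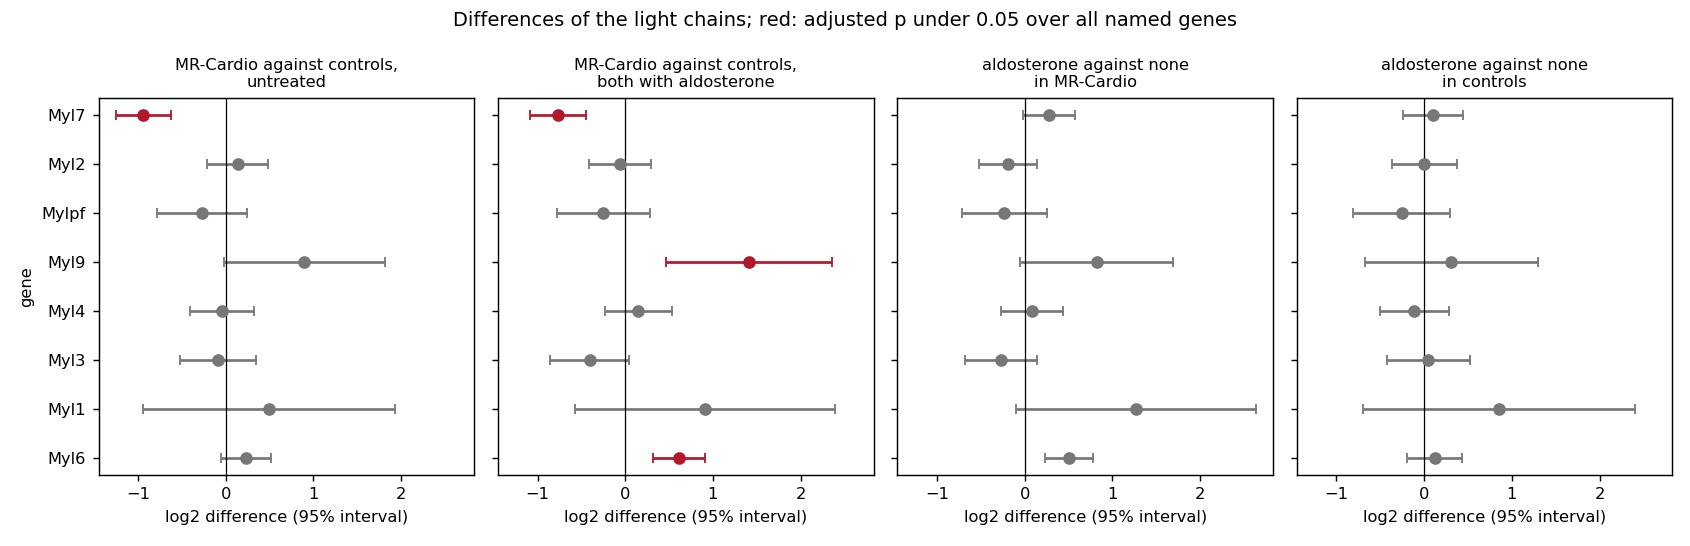
Log2 differences of the 8 light chains in 4 comparisons (points) with 95% confidence intervals (bars) from limma, red where the adjusted p over all genes is under 0.05. Myl7 lies left of 0 in both genotype comparisons, and Myl6 and Myl9 lie right of 0 with aldosterone.

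Myl7 encodes the atrial regulatory light chain, also called MLC2a. Its log2 ratio in untreated MR-Cardio hearts ran from −6.24 to −5.60 with a median of −5.75, and in untreated controls it was −4.73, −4.96, −4.86, −5.06 and −4.59. The groups did not overlap, all 7 MR-Cardio hearts lying below all 5 controls. The difference was −0.94 ± 0.15 (SE; limma adjusted p = 0.000233), 0.520 times the control ratio. In bulk tissue, fewer cells of a type and less RNA per cell cannot be told apart.

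With aldosterone the MR-Cardio hearts ran from −6.17 to −4.98, median −5.45, and the controls had −4.64, −4.54, −4.81, −4.93 and −4.77. Again the groups did not overlap, although mouse 2 of the MR-Cardio group, at −4.98, lay next to the lowest control, at −4.93. The difference was −0.77 ± 0.16 (SE; limma adjusted p = 0.00104), or 0.588-fold. From lowest to highest group mean the order was untreated MR-Cardio (−5.78), MR-Cardio with aldosterone (−5.50), untreated controls (−4.84) and controls with aldosterone (−4.74). Neighbours in this order overlapped, and aldosterone made no difference past the threshold in either genotype. Quantile normalization made the Myl7 differences smaller, at −0.59 without and −0.41 with aldosterone, and both stayed past the threshold (limma adjusted p = 0.0048 and 0.03).

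Some other low ratios fell as Myl7 did, and others did not. The 807 genes with a control ratio under −4 had a median genotype difference of −0.37 without aldosterone. Of them 298 fell and 30 rose, and the rest were not called. Over all 21892 genes the median was −0.01, and 1711 fell while 1267 rose. Myl4, with a control mean of −4.37, is among the 807 and differed by −0.04 without a call. All 10 liver markers, genes such as Alb, Apoa1 and Ttr that mark a tissue of the pool, fell in MR-Cardio hearts in both genotype comparisons, with a median of −0.92 without and −0.83 with aldosterone. Their mean ratio per mouse was −4.92 to −4.30 in MR-Cardio hearts with aldosterone and −4.71 to −4.33 without, against −3.68 to −3.62 in controls with aldosterone and −3.70 to −3.49 without. Across the 23 mice the named genes most like Myl7 in log2 ratio were Gpx6 (Pearson r = 0.94), Mup19 (0.92) and Saa2 (0.92). With each array divided by its spike-in slope, the Myl7 difference was −0.69 and the liver median −0.65 without aldosterone. Genotype and the width of the array cannot be told apart in these data.

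Myl4, the atrial essential light chain, which the fetal ventricle also makes, was not called in any comparison. Its ratio ran from −4.71 to −3.77, median −4.45, in untreated MR-Cardio hearts and was −4.11, −4.67, −3.96, −4.30 and −4.80 in untreated controls. With aldosterone it ran from −4.68 to −4.06 in MR-Cardio hearts and was −4.37, −4.71, −4.21, −5.01 and −4.10 in controls. The groups overlapped throughout, with differences of −0.04 (95% interval −0.41 to 0.32) and 0.15 (−0.23 to 0.53). The order of group means was MR-Cardio with aldosterone (−4.33), untreated controls (−4.37), untreated MR-Cardio (−4.41) and controls with aldosterone (−4.48), and neighbours overlapped.

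Of 10 other atrial markers, Sln and Bmp10 fell and Kcnk3 rose between untreated MR-Cardio and control hearts, and the other 7 did not pass. The share of all genes called was 13.6% without and 25.1% with aldosterone. Sln, the sarcolipin gene, which encodes an inhibitor of the calcium pump, had a mean log2 ratio of −6.03 in MR-Cardio hearts and −5.27 in controls (limma adjusted p = 0.000618). Bmp10, a growth factor made in the atrium of the adult heart, differed by −0.82 and Kcnk3, a potassium channel gene, by 0.39. Under quantile normalization none of the 3 passed in this comparison (Sln −0.35, adjusted p = 0.0635). Bmp10 also missed the threshold after median centring (0.0614), and Kcnk3 after division by the spike-in slope (0.0949 without and 0.0823 with aldosterone). After that division 1 of the 10 rose and 2 fell without aldosterone, so a marker other than Kcnk3 rose there. As deposited, with aldosterone in both genotypes, 1 of the 10 fell (Sln, −0.80) and 1 rose (Kcnk3, 0.39). The mean ratio of the 10 markers per mouse was −0.84 to −0.38 in untreated MR-Cardio hearts and −0.83 to −0.61 in untreated controls, so the whole list overlapped between genotypes.

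**Figure D3:**
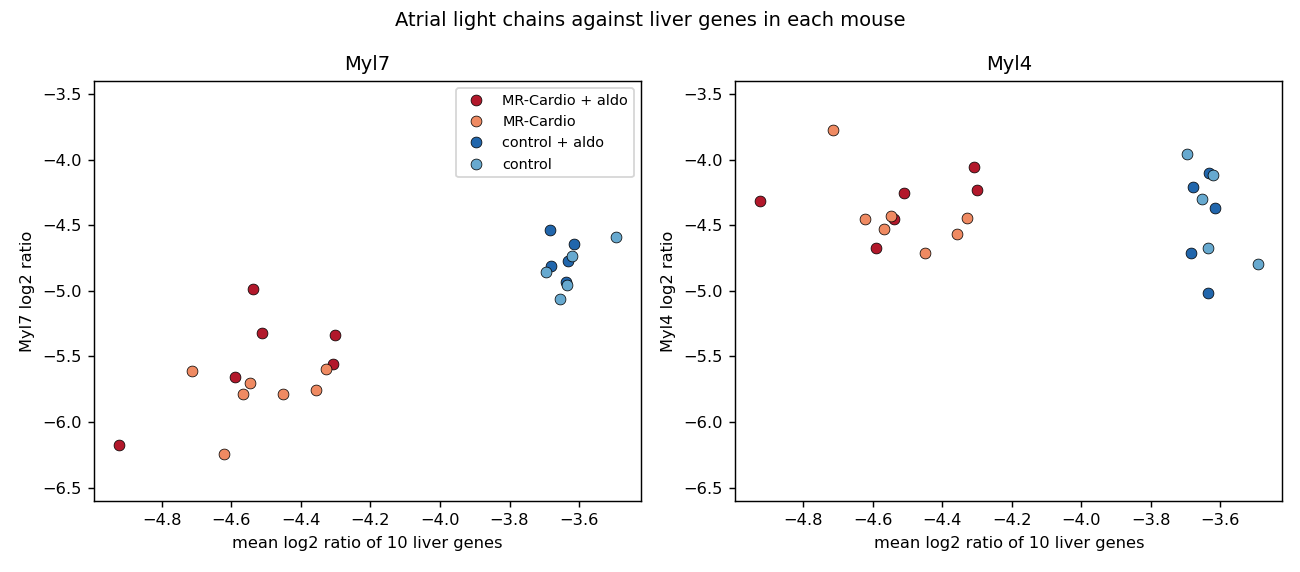
Log2 ratio of Myl7 (left) and Myl4 (right) in each mouse (y axis) against the mean log2 ratio of 10 liver genes on the same array (x axis), coloured by group. MR-Cardio arrays lie at liver ratios of −4.30 and below and carry low Myl7 ratios, while Myl4 spans the same range in all groups.

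Myl2, the ventricular regulatory light chain and a classic marker of ventricular cardiomyocytes, had means of 3.38 ± 0.40 in MR-Cardio hearts with aldosterone, 3.58 ± 0.24 in untreated MR-Cardio hearts, 3.44 ± 0.11 in controls with aldosterone and 3.44 ± 0.33 in untreated controls (SD). Neighbours in the order of these means overlapped. The genotype differences were 0.14 (95% interval −0.21 to 0.48) without and −0.06 (−0.42 to 0.30) with aldosterone. The 2 Myl2 probes disagreed in direction: the genotype difference without aldosterone was 0.50 for one and −0.23 for the other, and with aldosterone 0.25 and −0.37, none past the threshold. Quantile normalization put the gene at −0.46 with aldosterone, just past it (limma adjusted p = 0.0495).

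Myl3, the ventricular essential light chain, which slow skeletal fibres share, averaged 0.62 ± 0.55 in MR-Cardio hearts with aldosterone, 0.89 ± 0.41 in untreated MR-Cardio hearts, 1.03 ± 0.09 in controls with aldosterone and 0.98 ± 0.14 in untreated controls (SD). The 13 MR-Cardio hearts spread from −0.40 to 1.30, while the 10 control hearts kept within 0.80 and 1.18, and all groups overlapped. The lowest value was that of mouse 1 of the MR-Cardio group with aldosterone. The genotype difference with aldosterone was −0.41 (95% interval −0.86 to 0.04; limma adjusted p = 0.183) and it was −0.20 without that mouse. Without aldosterone it was −0.09 (−0.52 to 0.35).

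Among 5 other genes listed as ventricular markers, Myh7 and Lrrc10 rose in both genotype comparisons and 3 did not pass. The mean Myh7 ratio in the control ventricles was low, at −3.05 without and −3.43 with aldosterone. Its rise is therefore not read as a rise of a ventricular mark. Myh7, the slow beta heavy chain that carries Myl2 and Myl3 in cardiac and slow muscle, differed by 1.89 ± 0.50 without and 3.48 ± 0.52 with aldosterone (SE; limma adjusted p = 0.0146 and 6e-05). Of 13 heavy chain genes, Myh7 and Myh2 were the ones called in each genotype comparison and both were higher. Beside this and the other list counts here, 13.6% of all genes were called without aldosterone and 25.1% with it. After division by the spike-in slope, 1 heavy chain gene also fell in each genotype comparison. Myh2 missed the threshold with aldosterone under quantile normalization (adjusted p = 0.0534). Myh6, the alpha heavy chain of the adult mouse ventricle, differed by −0.11 and 0.03 and was not called. Of 14 cardiomyocyte markers 0 rose and 2 fell without aldosterone (Pln, the phospholamban gene, and Tnnc1), and 1 rose and 2 fell with it. These counts depended on scaling: without aldosterone 1 fell after median centring, where Tnnc1 was lost, and with aldosterone 1 rose and 4 fell under quantile normalization, and 0 rose and 6 fell after division by the spike-in slope. Their mean ratio was 1.59 to 2.19 in MR-Cardio hearts with aldosterone and 2.04 to 2.21 without, against 2.14 to 2.41 in controls with aldosterone and 2.06 to 2.28 without.

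Myl1 had the widest range of the 8 genes. This gene, the essential chain of fast fibres, ran from 0.09 to 3.79 with a median of 2.00 in MR-Cardio hearts with aldosterone, and was 2.43, 1.31, 0.15, 0.99 and 0.17 in controls with aldosterone. Without treatment it ran from −1.11 to 2.74, median 0.90, in MR-Cardio hearts and was −0.03, −0.71, −0.04, 0.63 and 0.92 in controls. The groups overlapped. The highest hearts were MR-Cardio hearts, no untreated control passed 0.92, and no heart given aldosterone was below 0.09. Mice 3, 4 and 5 of the untreated MR-Cardio group lay above all untreated controls, at 0.97, 2.46 and 2.74, while mice 6 and 7 lay below them.

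By group mean Myl1 ordered as MR-Cardio with aldosterone (1.92), controls with aldosterone (1.01), untreated MR-Cardio (0.65) and untreated controls (0.15), and neighbours overlapped. The genotype differences were 0.49 (95% interval −0.94 to 1.93) without and 0.91 (−0.58 to 2.40) with aldosterone. Both Myl1 probes gave the same sign. Mylpf, the regulatory chain of fast fibres, ran from −0.35 to −0.04 in MR-Cardio hearts with aldosterone, from −0.30 to 1.03 without, from −0.28 to 0.48 in controls with aldosterone and from −0.31 to 1.17 in untreated controls. Its genotype differences were −0.27 (−0.78 to 0.24) and −0.25 (−0.78 to 0.28), and it was not called. Its 4 groups overlapped, with the lowest mean in MR-Cardio hearts with aldosterone (−0.22) and the highest in untreated controls (0.28).

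Other genes of fast muscle differed in direction on the same arrays. Of 14 other fast skeletal markers, 4 rose and 2 fell without aldosterone, and 5 rose and 2 fell with it. The share of all genes called was 13.6% without and 25.1% with aldosterone. Tnnt3 and Tnni2, the fast troponin T and I genes, rose by 4.17 and 3.84 without and by 4.99 and 4.19 with aldosterone, and Myoz1, a Z-disc protein of fast fibres, by 3.44 and 3.75. Tnnc2, the fast troponin C gene, was not called (0.16 without and −0.05 with aldosterone), and Actn3, another Z-disc gene of fast fibres, differed by 0.44 without passing and rose by 1.33 with aldosterone. Atp2a1 and Cacna1s, the fast fibre calcium pump and calcium channel genes, fell by 0.84 and 1.36 without aldosterone. Pvalb, a calcium buffer of fast fibres, was listed at −4.57 and −4.49 in MR-Cardio hearts with and without aldosterone and at −4.54 and −4.51 in the controls. Tnnt1, the slow skeletal troponin T gene, rose by 2.01 and 2.69, and Mybpc1 fell by 0.53 and 0.64, among 6 slow or fetal skeletal markers of which the other 4 did not pass. Without aldosterone the Mybpc1 call was lost on median centring (adjusted p = 0.0503). The fast list averaged 0.85 to 1.48 per mouse in untreated MR-Cardio hearts and 0.04 to 0.59 in untreated controls. Its 14 genes had a median genotype difference of only 0.01 without and −0.03 with aldosterone, so the list did not rise as a whole.

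**Figure D4:**
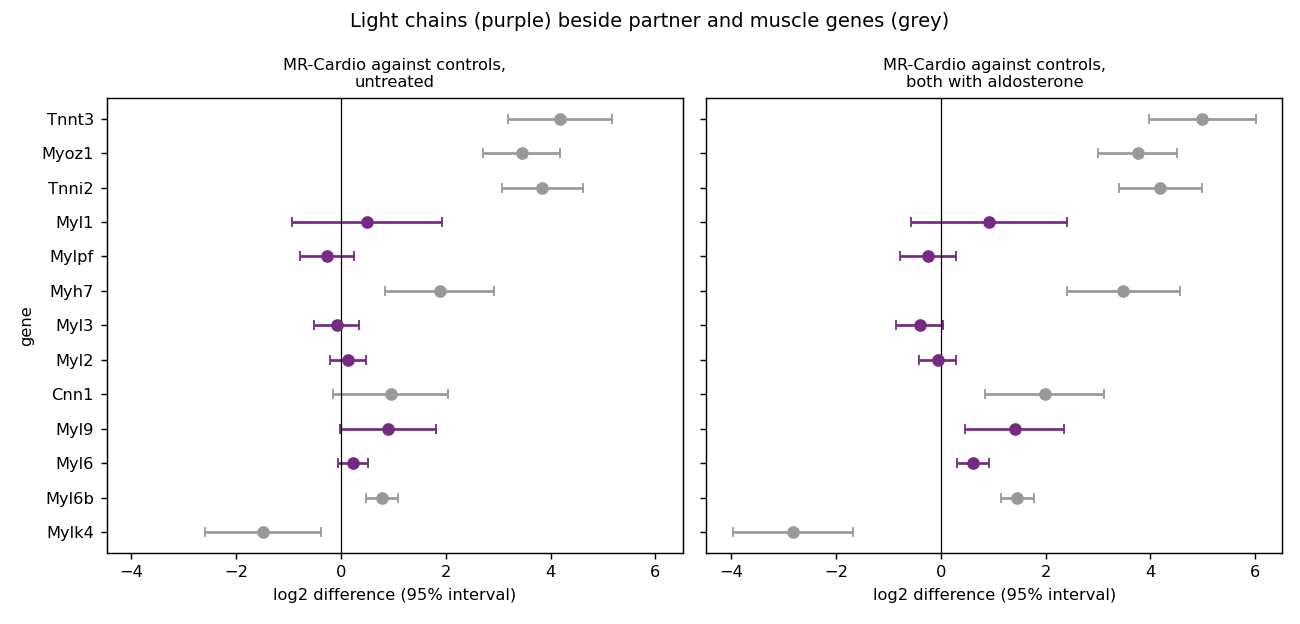
Log2 differences between MR-Cardio and control hearts (points) with 95% confidence intervals (bars), without aldosterone (left) and with it (right), for light chains (purple) beside other muscle genes (grey). Tnnt3, Myoz1, Tnni2 and Myh7 lie well right of 0 while Myl1, Mylpf, Myl2 and Myl3 straddle 0.

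Myl9 and Myl6 serve smooth muscle and non-muscle myosin. Myl9, the regulatory light chain of smooth muscle, ran from 1.56 to 3.32 with a median of 2.23 in MR-Cardio hearts with aldosterone, and was 1.70, 0.54, 1.29, 0.13 and 1.27 in controls with aldosterone. Of the 6 MR-Cardio hearts 5 lay above every control, and mouse 3 lay inside the control range. The difference was 1.41 ± 0.46 (SE; limma adjusted p = 0.0274), a 2.65-fold higher ratio. The call did not hold without controls 2 or 4 with aldosterone (adjusted p = 0.0677 and 0.0811) or without MR-Cardio mice 2 or 4 with aldosterone (0.0630 and 0.0644), and the difference was then 1.19 to 1.30. It was 1.15 (adjusted p = 0.107) with the spike-in offset of each array as a covariate, and 1.33 (0.0553) without the 5 arrays of lowest offset.

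Without treatment Myl9 ran from 0.65 to 2.96, median 1.07, in MR-Cardio hearts and was 0.48, 0.12, 1.00, 1.62 and 0.16 in controls. Mice 3, 4 and 5 of the MR-Cardio group lay above all controls and the other 4 lay among them. The difference of 0.90 ± 0.44 did not pass (SE; limma adjusted p = 0.192). By group mean the order was MR-Cardio with aldosterone (2.39), untreated MR-Cardio (1.57), controls with aldosterone (0.99) and untreated controls (0.68), and neighbouring groups overlapped.

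Of 9 other smooth muscle markers 0 passed without aldosterone and 1 rose with it. That was Cnn1, the calponin gene, by 1.98 ± 0.55 (SE; limma adjusted p = 0.0109). Myh11, the smooth muscle heavy chain and a defining marker, had mean ratios of 1.55 in MR-Cardio hearts and 1.91 in controls with aldosterone and fell past the threshold after division by the spike-in slope (adjusted p = 0.0433), not as deposited, and Acta2 and Tagln differed by 0.34 and 0.33 without passing. The list averaged 1.20 to 1.59 per mouse in MR-Cardio hearts and 1.11 to 1.36 in controls with aldosterone. Beside the smooth muscle count and those that follow, 13.6% of all genes were called without aldosterone and 25.1% with it. Of 10 fibroblast markers 3 rose without aldosterone (Dpt, Pdgfra and Mfap5), 4 rose with it (those and Tcf21), and 0 fell. Their mean ratio was 1.52 to 3.42 in MR-Cardio hearts with aldosterone and 1.04 to 3.11 without, against 1.14 to 1.73 in controls with aldosterone and 0.78 to 1.49 without. Of 8 endothelial markers 0 were called in either genotype comparison, and of 5 measured blood markers 2 fell without aldosterone (Hbb-b1 and Slc4a1) and 1 with it (Slc4a1). Neither blood marker kept its call after division by the spike-in slope, Hbb-b1 was also lost on median centring, and Slc4a1 was lost under quantile normalization. Slope division also ended the Pdgfra call with aldosterone (adjusted p = 0.0513) and put the endothelial marker Tek lower, past the threshold, in both comparisons (0.0203 and 0.0145). The part of fibroblasts in the Myl9 difference was not tested.

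Myl6, the essential light chain of smooth muscle and non-muscle myosin, ran from 0.20 to 1.04 with a median of 0.58 in MR-Cardio hearts with aldosterone. Controls with aldosterone had 0.09, −0.12, 0.00, −0.06 and −0.12. The groups did not overlap, all 6 MR-Cardio hearts lying above all 5 controls. The difference was 0.61 ± 0.14 (SE; limma adjusted p = 0.00349), a 1.53-fold higher ratio, and both Myl6 probes were called on their own (0.54 and 0.69).

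Untreated, Myl6 ran from −0.26 to 0.50, median 0.01, in MR-Cardio hearts and was −0.31, 0.05, −0.38, −0.15 and −0.04 in controls. These groups overlapped and the difference was 0.23 (95% interval −0.06 to 0.52). By group mean the order was MR-Cardio with aldosterone (0.57), untreated MR-Cardio (0.07), controls with aldosterone (−0.04) and untreated controls (−0.16), and neighbours overlapped. Mouse 1 of the MR-Cardio group with aldosterone was highest, at 1.04. The named genes most like Myl6 across the 23 mice were Prss53 (Pearson r = 0.98), Prelid1 (0.95) and Kctd17 (0.94), and group differences are part of that likeness. With each group mean subtracted they were Prss53 (0.95), Prelid1 (0.91) and Sdc2 (0.90).

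Light chain genes outside the set described here differed in direction. Of 4 measured, Myl6b, an essential chain close to Myl6, rose by 0.78 ± 0.15 without and 1.46 ± 0.15 with aldosterone (SE; limma adjusted p = 0.0014 and 1.12e-06). Myl12a, a regulatory chain of non-muscle myosin, fell by 0.50 with aldosterone, to a mean of 1.88 in MR-Cardio hearts, against 2.38 in controls. Myl12b and Myl10 were not called.

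Aldosterone against no treatment in controls called 0 of 8 light chains and 0% of all genes (limma). At an unadjusted p under 0.05 there were 0 light chains and 1036 genes, and 8 genes were called with the control groups fitted alone. Control hearts with and without aldosterone overlapped for every light chain. The largest difference of means was that of Myl1, at 0.85 (95% interval −0.70 to 2.41).

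In MR-Cardio mice aldosterone called 0 of 8 light chains, against 1.43% of all genes. Myl6 came nearest, with 0.50 ± 0.13 (SE; limma adjusted p = 0.0602), a mean of 0.57 with aldosterone against 0.07 without. It passed when untreated mouse 3 or 5 or aldosterone mouse 3 or 6 was left out (0.55 to 0.58, adjusted p = 0.0245 to 0.0453). Myl1 differed by 1.27 (95% interval −0.09 to 2.64), Myl9 by 0.82 (−0.05 to 1.69) and Myl7 by 0.28 (−0.02 to 0.58). Among the other light chains Myl6b rose by 0.67 ± 0.14 (SE; limma adjusted p = 0.0184). Of the 14 other fast skeletal markers 0 rose and 2 fell, beside 1.43% of all genes called, and 1 fell under quantile normalization.

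The aldosterone difference itself did not differ detectably between the genotypes. The interaction called 0 of 8 light chains and 0% of all genes in limma, with 1197 genes and 0 light chains at an unadjusted p under 0.05. Its value for Myl6 was 0.38 (95% interval −0.04 to 0.80), for Myl9 0.51 (−0.81 to 1.83) and for Myl7 0.18 (−0.28 to 0.63). A call with aldosterone and none without it is thus not a shown difference for Myl6 or Myl9.

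Within groups some light chains varied together from mouse to mouse. After each group mean was subtracted, all 28 pairs were correlated over the 23 mice with permutation of mice within groups, and p-values were adjusted over the 28. Myl1 and Myl9 had Pearson r = 0.76 and Spearman rho = 0.75 (adjusted permutation p = 0.0148 and 0.00868), and r = 0.69 without the 2 mice farthest from the median. Their r was 0.91 in the 13 MR-Cardio mice and 0.22 in the 10 controls. The MR-Cardio hearts high in Myl1 were also high in Myl9, among them mice 4 and 5 without and mice 2 and 4 with aldosterone.

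Myl2 and Myl3, the ventricular pair, had r = 0.67 and rho = 0.58 (adjusted permutation p = 0.0384 and 0.0605), r = 0.56 without the 2 farthest mice, 0.79 in MR-Cardio mice and 0.23 in controls. Myl4 and Mylpf ran opposite, with r = −0.66 and rho = −0.71 (adjusted permutation p = 0.0617 and 0.00868), −0.30 in MR-Cardio mice and −0.90 in controls. Whether r differs between genotypes was not tested. The values of 1 mouse share an array, so array effects are part of these correlations.

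**Figure D5:**
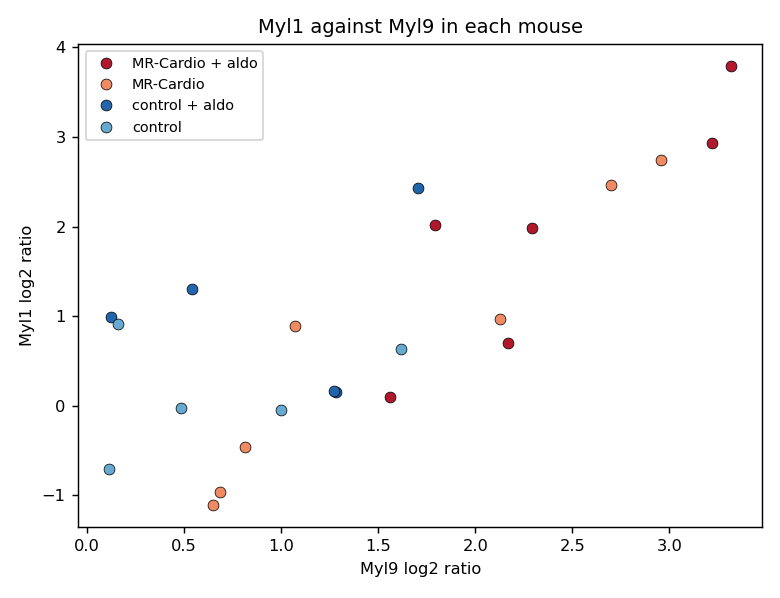
Log2 ratio of Myl1 (y axis) against Myl9 (x axis) in each mouse, coloured by group. MR-Cardio hearts run from low values of both genes to high values of both, and control hearts form no such line.

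By the same deviations from group means, the genes most like each light chain across 23 mice were Cox6a2, Ndufs4 and Slc25a4 for Myl3 (Pearson r = 0.94, 0.93 and 0.91), genes of the mitochondrial inner membrane. For Myl9 they were Pdlim4, Cspg4 and Slc1a1 (0.86, 0.85 and 0.84), and for Myl1 Kifc1, Ddx39a and Sys1 (0.86, 0.83 and 0.80). Myl7 was most like Tbx2, Gpx6 and Kdr (0.80, 0.79 and 0.79), and Myl4 most like Klhl2, Arid5a and Cacna1d (0.87, 0.84 and 0.80). Dmac2, Aptx and Kdm7a followed Myl2 (0.83, 0.82 and 0.81), and Olfr1391, Olfr495 and Cd40lg followed Mylpf (0.86, 0.77 and 0.77). Those of Myl6 are given with that gene above. These were the highest correlations of each light chain among the 21892 genes once clone and predicted names were left out. They are given as a description.

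Of 13 measured genes for kinases and phosphatases that act on the regulatory light chains, 2 rose and 1 fell without aldosterone, beside 13.6% of all genes called, and 3 rose and 2 fell with it, beside 25.1%. Mylk4, a light chain kinase gene of striated muscle, had a mean ratio of 0.97 in MR-Cardio hearts and 3.79 in controls with aldosterone, a difference of −2.83 ± 0.55 (SE; limma adjusted p = 0.000747). Without aldosterone Mylk4 missed the threshold (adjusted p = 0.0678) and passed it under quantile normalization (0.0425) and division by the spike-in slope (0.0386). Mylk3, the cardiac light chain kinase that phosphorylates Myl2, differed by −0.15 and −0.12 and was not called. Ppp1r12c, a targeting subunit of myosin phosphatase, rose by 0.54 and 0.63, and Ppp1r14b, a phosphatase inhibitor, by 0.62 and 0.53. Ppp1r14c, a related inhibitor, fell by 0.27 and 0.42, and its call without aldosterone was lost on median centring (adjusted p = 0.145) and quantile normalization (0.0738).

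Among 19 measured transcription factors that control light chain genes or chamber identity, 2 rose and 1 fell without aldosterone, beside 13.6% of all genes called, and 4 rose and 2 fell with it, beside 25.1%. Tbx20 rose by 0.87 and 0.92 and Hand2 by 0.67 and 1.02, both factors of heart development, while Myod1, the skeletal muscle factor, fell by 0.84 and 0.80. Nkx2-5 (0.28), Nr2f1 (0.37) and Mef2a (−0.23) were called with aldosterone and not without it. The counts with aldosterone depended on scaling. After median centring 4 rose and 1 fell, under quantile normalization 3 rose and 2 fell, and after division by the spike-in slope 3 rose and 3 fell. Srf, Myocd and Irx4, which act on the CArG box or hold the ventricular programme, were not called in either comparison.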

How the data were processed

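Total RNA from ventricles of 23 male mice, 1 mouse per array, was labelled with Cy5 and hybridised with a Cy3-labelled tissue pool, per the labels. Per the submitters' processing notes, the tool was Agilent Feature Extraction 10.7.3.1. The deposited values were taken as log2 ratios of heart over pool, with 1 value for each probe on each array. Dyes are as labelled, while base and sign were inferred from the values, which are above 0 for heart genes and below 0 for liver and brain genes. For background correction and within-array normalization, nothing was given in the sources used here. Signal over background was not used here, so whether the low Myl7 and Myl4 signals were above it is not known. Precision is limited by how many arrays there are, and p-values weigh a difference against the spread between these mice within groups. With 1 array per mouse, that spread includes array effects.

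Of 39485 value table entries 56 control probes were removed. The 30625 probes with a gene symbol in the platform annotation were averaged to 21892 genes. No normalization between arrays was added. Differences were fitted with limma 3.58.1 in R 4.3.3 over all 23 arrays with 1 mean per group, two-sided, with Benjamini-Hochberg adjustment over all genes and a threshold of 0.05. Tested on simulated data, this fit recovered 78.1% of genes changed by 1 log2 unit between the untreated genotypes, over 21892 genes. For genes changed by 0.5 log2 units the recovery was 48.3% there and 42.1% for aldosterone in MR-Cardio mice.

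All 8 light chains are named in every comparison. From each of 14 context lists the rule allows, per comparison, up to 4 genes past the threshold by smallest p or the 2 smallest p where none passed. For each light chain it allows the 3 genes with the highest Pearson r, with clone and predicted names left out. Some context genes that did not pass, such as Pvalb, Myh6, Mylk3, Srf, Acta2 and Myh11, were named for their role after their values were seen. Members and lists were chosen with earlier results of these data known. Of 137 list genes 133 were measured. Promoters are RefSeq windows of GRCm38.p6, and no genome was used.

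Alternatives were median centring, quantile normalization, spike-in offset as covariate, spike-in slope as divisor, the most variable probe, single probes, a fit of the compared groups only, trended and robust eBayes, array weights, the 16419 genes of highest mean ratio, the sample number as a block and each mouse left out in turn. Leaving out the 5 arrays with a spike-in offset under −0.3 was added after the data had been seen. Sample numbers recur across groups, but each mouse has its own animal number, and the mice of a number were not taken as pairs.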

Additional observations from a re-analysis of the deposited data

Results flagged for a closer look

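In 3 of 32 sets of 1 light chain in 1 group, a mouse lay farther from the others than Dixon's 95% limit allows, and chance alone does so in about 1 of 20 such sets. Mouse 7 of the untreated MR-Cardio group had the lowest Myl7 ratio, −6.24, apart from the other 6 mice of its group. Mouse 3 of that group had the highest Myl4 ratio, −3.77, and mouse 4 had the highest Mylpf ratio, 1.03. These 3 mice have spike-in offsets of −0.34, −0.38 and −0.50, the lowest of their group, and the part of the offset was not tested. Without mouse 7 the Myl7 difference between untreated genotypes remained past the threshold.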

How the results depend on the processing

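Myl7 kept its direction and call in both genotype comparisons under every alternative in which it was tested (−0.998 to −0.59 without and −0.87 to −0.41 with aldosterone), and Myl6 with aldosterone under all (0.52 to 0.69). With the sample number as a block, the count of genes called for aldosterone in MR-Cardio mice was 154, and counts of light chains did not change. Same-numbered mice of different groups had correlations of −0.16 to 0.28. Between the MR-Cardio groups 3 of 6 untreated mice were most like the aldosterone mouse of their own number. Between the control groups this was 1 of 5, and between genotypes 0 of 5. The numbers were not read as pairs, and whether arrays of a number share handling was not tested. Keeping the 16419 genes of highest mean ratio gave 1614 genes between untreated genotypes and 94 for aldosterone in MR-Cardio mice, and 0 light chains between untreated genotypes, since Myl7 was then not tested. Without the 5 arrays of low spike-in offset, 1086 genes were called between untreated genotypes. With the compared groups alone, aldosterone called 8 genes in controls and 0 in MR-Cardio mice. Leaving out each mouse gave 0 to 1 genes for aldosterone in controls, 138 to 697 genes (the most without untreated mouse 5, the fewest without aldosterone mouse 4) and 0 to 1 light chains in MR-Cardio mice, and 0 to 1 genes for the interaction.

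Signs turned only in differences that had not passed. Between untreated genotypes Myl2 was −0.0917 (quantile), −0.0343 (spike-in slope) and −0.23 (1 probe), Myl4 was 0.17 (quantile), 0.17 (slope) and 0.0264 (block), and Myl3 was 0.0155 (offset covariate) and 0.22 (offset arrays left out). For aldosterone in controls Myl2 was −0.0048 (slope), −0.00029 (offset covariate), −0.0608 (array weights) and −0.14 (1 probe). With aldosterone in both genotypes Myl2 was 0.0286 (offset covariate), 0.25 (most variable probe) and 0.0156 (weights). The Mylpf interaction was −0.0031 (offset covariate), −0.0621 (weights) and −0.0108 (block). Leaving out each mouse gave, between untreated genotypes, −0.15 to 0.0579 for Myl4 and −0.15 to 0.0021 for Myl3. It gave −0.12 to 0.0821 for Myl2 and −0.22 to 0.0211 for Myl4 with aldosterone in controls, −0.15 to 0.0725 for Myl2 with aldosterone in both genotypes, and −0.20 to 0.19 for the Mylpf interaction. The cause was not tested, except that the 2 Myl2 probes disagree.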
